A study of Mus musculus with 21 samples.

Results

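The 5 perilipin genes of the mouse, Plin1, Plin2, Plin3, Plin4 and Plin5, were examined for binding of the glucocorticoid receptor (GR) in liver. Overlapping peaks of 18 GR lists were merged into 7398 sites, and each site was given to the protein-coding gene whose span lay nearest to its centre, within 50 kb. By this rule 2 of the 7398 sites belonged to a perilipin gene, and both lay in Plin4. Plin1, Plin2, Plin3 and Plin5 were the nearest gene of 0 sites. Among all 21896 protein-coding genes, 22.1% had a site.

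Perilipins are the coat proteins of lipid droplets, the organelles in which cells store triglyceride and cholesterol ester. They sit on the droplet surface, limit the access of lipases to the stored fat and release it when the cell is told to burn or export it. Plin1 encodes the main coat of adipocyte droplets, Plin2 the coat found on droplets in most tissues including the liver, and Plin3 a cytosolic protein that moves onto newly formed droplets. Plin4 encodes a long protein with amphipathic repeats, best known from adipocytes, and Plin5 a coat of fat-burning tissues that tethers droplets to mitochondria. Glucocorticoids act on liver fat through GR, a transcription factor that binds DNA when it holds its ligand. The design compares its occupancy with and without a synthetic glucocorticoid and across oxygen conditions.

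GR was mapped by ChIP-seq in snap-frozen livers of C57BL/6J mice. The mice were injected with dexamethasone (DEX, 10 mg/kg) or with phosphate-buffered saline (PBS) and sampled 2 h later. They had been kept in normal air (normoxia) or at 7% oxygen for 6 h or 24 h, and the hypoxic mice went back to 7% oxygen after the injection. Each of the 6 groups (normoxia DEX, 6 h hypoxia DEX, 24 h hypoxia DEX, normoxia PBS, 6 h hypoxia PBS and 24 h hypoxia PBS) held 3 libraries, given as biological replicates. The labels give no age for the animals and mention no removal of the adrenal glands, the source of the animals' own glucocorticoid. Whole liver tissue was used, and a higher occupancy per cell cannot be told apart from more cells with an occupied site. Among the marker genes used to check the tissue, 7 of 10 hepatocyte genes had a GR site within 50 kb, against 0 of 6 stellate cell genes, 1 of 6 Kupffer cell and leukocyte genes, 2 of 9 adipocyte genes and 0 of 4 muscle genes. These are receptor sites and not expression levels, so they do not measure the cell types present. Values given are the peak caller's normalized tags, the tags at a peak per 10000000 tags of the library. A library whose list holds no peak at a site has no value there, which is not a value of 0.

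Plin4 occupies chromosome 17, 56100587 to 56109948 on the minus strand (mm10), with its transcription start at 56109782. The main site (56108682 to 56108967, 286 bp) was centred 958 bp inside the gene, downstream of the start. The second site (56109278 to 56109494, 217 bp) was centred 396 bp downstream of the start, 562 bp from the centre of the main one. Exons were not used here, so whether the sites lie in an exon or an intron is not stated. Neither site reached the promoter window, taken as 250 bases before to 50 bases after the start, since the second site ended 239 bp and the main site 766 bp short of it.

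The promoter windows of Plin4, Plin3 and Plin2 are printed below because Plin4 holds the sites, Plin3 starts 2571 bp from another site described further on, and Plin2 is the main liver perilipin and the one with both hypoxia motifs searched. The sequences are RefSeq's for build GRCm38.p6, the assembly behind mm10, and read 5′ to 3′ on the minus strand, at chr17:56109733-56110032 for Plin4, chr17:56290462-56290761 for Plin3 and chr4:86670010-86670309 for Plin2. Capitals mark matches to the motifs searched.
Plin4: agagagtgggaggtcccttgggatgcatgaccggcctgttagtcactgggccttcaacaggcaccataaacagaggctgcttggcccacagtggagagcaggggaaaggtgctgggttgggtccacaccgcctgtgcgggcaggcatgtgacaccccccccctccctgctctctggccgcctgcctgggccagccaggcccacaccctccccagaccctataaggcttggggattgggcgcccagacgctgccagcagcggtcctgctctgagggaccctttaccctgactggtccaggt
Plin3: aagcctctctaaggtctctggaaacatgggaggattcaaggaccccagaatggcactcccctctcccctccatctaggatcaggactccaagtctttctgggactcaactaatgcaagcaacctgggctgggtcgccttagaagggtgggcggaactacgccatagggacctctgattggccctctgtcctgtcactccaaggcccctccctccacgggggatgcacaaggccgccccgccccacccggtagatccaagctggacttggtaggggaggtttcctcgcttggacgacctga
Plin2: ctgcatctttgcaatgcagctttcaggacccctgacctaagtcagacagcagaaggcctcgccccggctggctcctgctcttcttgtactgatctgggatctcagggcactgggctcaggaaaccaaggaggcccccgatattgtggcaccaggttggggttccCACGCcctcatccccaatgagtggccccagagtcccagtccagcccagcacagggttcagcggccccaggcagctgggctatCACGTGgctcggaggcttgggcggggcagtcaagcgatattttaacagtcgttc
The windows were searched on both strands for 5 motifs. These were the full palindromic GR element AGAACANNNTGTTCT, its hexamer AGAACA (a part of the full element), the direct repeat AGGTCANAGGTCA bound by PPAR and RXR receptors, and the cores ACGTG and GCGTG bound by hypoxia-inducible factors. The table of promoters holds 6 windows of the 5 perilipin genes, 2 of them for Plin5 and overlapping each other. The full GR element, its hexamer and the direct repeat matched 0 of the 6, against 0.00913%, 19% and 0.0396% of all 32851 promoter windows. ACGTG matched the Plin2 window alone among the 6, and 19.6% of all windows. GCGTG matched the Plin2 window and both Plin5 windows, and 32.4% of all windows. These matches describe letters in a window and do not show binding.

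The main Plin4 site was called in every library, with DEX and with PBS. Only 62 of the 7398 sites (0.838%) were called in all 18. With DEX in normoxia it held 795.8, 839.0 and 1095.4 normalized tags in replicates 1, 2 and 3. With DEX after 6 h of hypoxia it held 982.4, 1075.8 and 891.6 tags, and with DEX after 24 h 529.0, 841.9 and 927.0. All 9 DEX libraries thus lay between 529.0 and 1095.4 tags, and the oxygen groups overlapped. With PBS the site held 36.2, 148.8 and 126.7 tags in normoxia, 74.1, 990.2 and 469.6 after 6 h of hypoxia and 227.4, 148.4 and 70.6 after 24 h. The PBS libraries spread more widely than the DEX libraries, and only 6 h hypoxia PBS replicate 2, at 990.2 tags, reached into the DEX range. The next highest PBS library, 6 h hypoxia PBS replicate 3, stayed below the lowest DEX library.

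**Figure D1:**
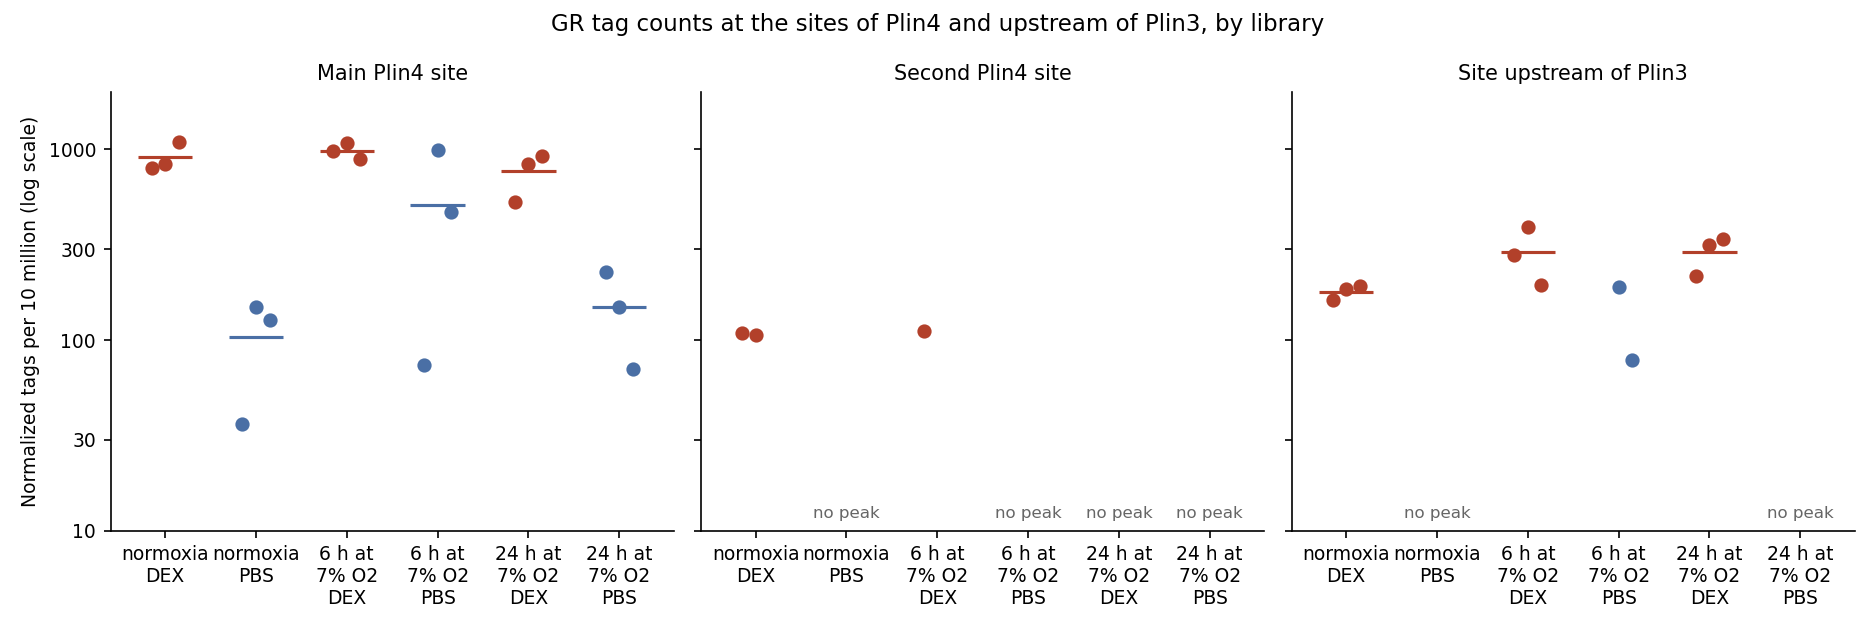
Normalized GR tags (log scale) at the main and the second Plin4 site and at the site upstream of Plin3, by group, with DEX libraries in red and PBS libraries in blue. Points are libraries in the order of replicates 1 to 3 and lines are group means where all 3 libraries had a peak; at the main site 8 of 9 PBS libraries lie below all 9 DEX libraries.

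The site averaged 886 ± 169.8 tags with DEX and 255 ± 304 tags with PBS (SD, n = 9 each). The group means were 910.1 ± 162 in normoxia, 983 ± 92.1 after 6 h and 766 ± 209.6 after 24 h with DEX, and 103.9 ± 59.7, 511 ± 459 and 149 ± 78.4 tags in the same conditions with PBS (SD, n = 3). By tags it ranked 8 to 18 in the DEX lists, of 1235 to 3659 peaks, and 4 to 88 in the PBS lists, of 78 to 3915 peaks. The PBS ranks are thus not alike. Rank 51 in 24 h hypoxia PBS replicate 3 was out of 78 peaks, and rank 88 in normoxia PBS replicate 1 out of 3915. Over its input of the same oxygen condition the authors' peak caller gave it 218-fold to 555-fold enrichment with DEX and 8.18-fold to 363-fold with PBS. The input was low, with 1.5 to 4.7 tags as the caller lists them in the comparisons with DEX libraries and 1.6 to 6.6 in those with PBS libraries. The peak centres of the 18 libraries fell within 49 bp of each other.

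Normalized tags at the main Plin4 site were higher with DEX than with PBS. Averaged over the oxygen conditions, log2 tags were 2.48 ± 0.32 (SE) higher with DEX than with PBS, a 5.56-fold difference with a 95% interval of 3.61 to 8.56 (limma, adjusted p = 2.4e-13). The limma spread was pooled over 62 sites whose tags move together within a library, so its p is smaller than the 18 libraries alone would give. An exact permutation test of this site, with labels exchanged within oxygen conditions, gave p = 0.00075 (two-sided), where the smallest possible is 0.00025. Of the 62 sites called in all libraries, 59 (95.2%) were higher with DEX and 0 lower, with a median log2 change of 1.63, so most of these sites share the call made at Plin4. That split depends on the scaling: with each library centred on its median over these sites, 16 were called higher and 20 lower with DEX. Centring takes out any change shared by most of these sites. A near-even split thus follows from that step and does not test the shared rise. By size, the Plin4 change had rank 4 of the 62, after a site 17947 bp from Armc12, one whose nearest gene was Ptpn1, 78927 bp away, and one in Foxp1.

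**Figure D2:**
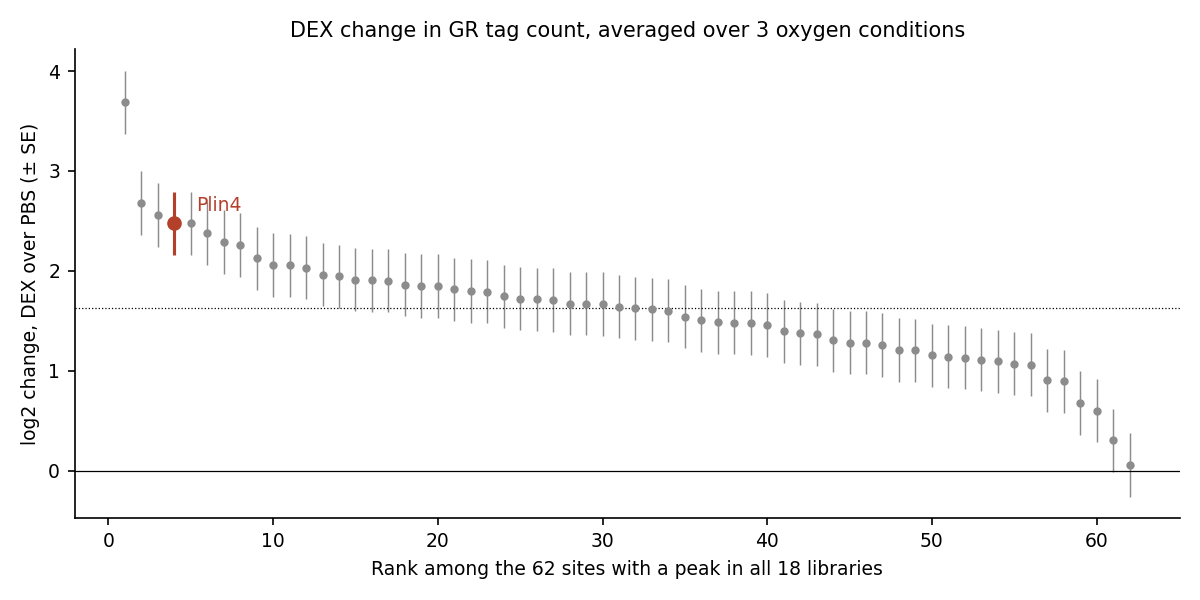
The log2 change in normalized tags with DEX over PBS (vertical axis, ± SE, the same SE at every site) at the 62 sites called in all 18 libraries, ordered by size (horizontal axis), with the Plin4 site in red and the median of 1.63 as a dotted line. The Plin4 site has rank 4, at 2.48, and its error bar overlaps those of its neighbours in rank.

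Within single oxygen conditions the DEX change at the main site was 3.36 ± 0.55 on the log2 scale in normoxia (limma, adjusted p = 4.9e-08), 1.59 ± 0.55 after 6 h (adjusted p = 0.0266) and 2.48 ± 0.55 after 24 h (adjusted p = 7.6e-05). The sites called higher with DEX numbered 58 of 62 (93.5%) in normoxia, 25 of 62 (40.3%) after 6 h and 48 of 62 (77.4%) after 24 h. The 6 h count turned on single libraries, as it was 1 of 64 without 6 h hypoxia PBS replicate 1, 11 without PBS replicate 3, 5 without DEX replicate 1, 4 without DEX replicate 2 and 49 without PBS replicate 2, and, without normoxia PBS replicate 1, 38. Without 24 h hypoxia PBS replicate 3 it was 51, with 100 sites tested. The 24 h count was 27 without 24 h hypoxia DEX replicate 3. With libraries centred, the sites higher and lower with DEX numbered 12 and 12 in normoxia, 7 and 8 after 6 h, and 12 and 14 after 24 h. Here too the near-even splits follow from the centring. With 3 libraries against 3 the exact permutation test cannot go below p = 0.1, and it gave 0.1 in normoxia and at 24 h, and 0.3 at 6 h. The 6 h value rests on its PBS libraries. It was 2.39 without 6 h hypoxia PBS replicate 2 and 0.52 without 6 h hypoxia PBS replicate 1 (limma, adjusted p = 0.504). It also missed the threshold without 6 h hypoxia DEX replicate 1 (1.59, adjusted p = 0.0675) or replicate 2 (1.52, adjusted p = 0.109). The DEX change in hypoxia minus that in normoxia was -1.32 ± 0.67 (limma, adjusted p = 0.580), and 0 of 62 sites passed that test at the threshold, with 3 at an unadjusted p under 0.05. Without 6 h hypoxia PBS replicate 1 it was -1.85 (adjusted p = 0.0244), and without normoxia PBS replicate 1 and 6 h hypoxia PBS replicate 2 together it was -0.28.

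These 2 PBS libraries stood apart from the other 7. Normoxia PBS replicate 1 was the deepest of all, with 43645787 tags against 5772670 to 16500568 in the other 17. Its peaks were 280 bp wide against 178 to 196 bp. The caller considered up to 2 tags per base in it, against 1 in the other 17. In 6 h hypoxia PBS replicate 2, 1.23% of tags fell in peaks, against 0.150% to 0.684% in the other PBS libraries and 1.38% to 3.68% in the DEX libraries, and 68.2% of the 935 sites called in all 9 DEX libraries were also called there. Without both, the DEX change at Plin4 was 2.53 over all conditions, and 2.71 in normoxia, 2.39 at 6 h and 2.48 at 24 h, which lowers the normoxia value and raises the 6 h value. With the share of tags in peaks as a covariate, the change was 0.92 ± 0.87 (limma, adjusted p = 0.968). Then 0 of 62 sites were called, with 1 at an unadjusted p under 0.05. The ranges of that share with DEX and with PBS do not overlap, so a DEX effect cannot be told apart from it.

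The other sites called in all libraries also differed between libraries. The other 61 common sites had a median of 281 to 530.1 tags across the DEX libraries and of 47.2 to 372 across the PBS libraries. The Plin4 site stood at 1.88 to 2.62 times that median in the 9 DEX libraries. With PBS it stood at 0.767, 0.963 and 0.959 times the median in normoxia, at 0.893, 2.66 and 2.05 times after 6 h and at 1.32, 1.29 and 0.819 times after 24 h. All but these 6 h hypoxia replicates 2 and 3 thus lay below the DEX range. When each library was centred on its median, the DEX change at Plin4 remained called at 0.84 ± 0.15, with 0.45 after 6 h no longer called (adjusted p = 0.210).

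**Figure D3:**
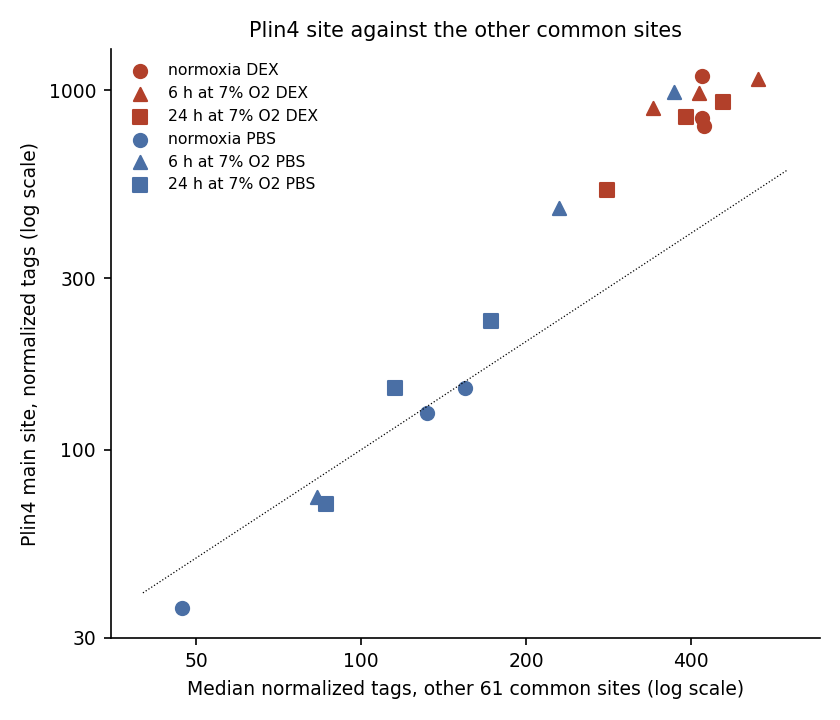
Normalized tags at the main Plin4 site (vertical, log scale) against the median of the other 61 common sites (horizontal, log scale) in each of the 18 libraries, DEX in red and PBS in blue, with equality as a dotted line. The DEX libraries lie at 1.88 to 2.62 times the line, most PBS libraries lie near it, and 6 h hypoxia PBS replicates 2 and 3 lie with the DEX libraries.

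Detection alone does not show the DEX change at this site, since both treatments called it in 9 of 9 libraries. Of 2563 sites put to the exact Cochran-Mantel-Haenszel test, with the oxygen conditions as strata, 1418 (55.3%) were called more often with DEX and 1 (0.039%) less often, and 0 of the 2 Plin4 sites were among them. The second Plin4 site was called in 3 libraries, too few to pass this test. At a common threshold of 86.6 normalized tags in every library, the main site was called in 9 DEX and 6 PBS libraries (adjusted p = 0.266).

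No change of the main site with hypoxia was detected in DEX-treated livers. After centring each library on its median over the 935 sites called in all DEX libraries, tags in hypoxia (6 h and 24 h together) differed from normoxia by 0.07 ± 0.16 on the log2 scale, with a 95% interval of -0.27 to 0.42 (limma, adjusted p = 0.856). The exact permutation test of 6 against 3 libraries gave p = 0.679. The single contrasts were 0.14 ± 0.19 for 6 h against normoxia (adjusted p = 0.847), 0.01 ± 0.19 for 24 h against normoxia (adjusted p = 0.977) and -0.12 ± 0.19 for 24 h against 6 h (adjusted p = 0.775). Over all 935 sites, 48 (5.13%) passed the test of hypoxia against normoxia, 29 higher and 19 lower. For the single contrasts the shares called were 2.57% for 6 h against normoxia, 4.17% for 24 h against normoxia and 1.39% for 24 h against 6 h. On the linear scale the interval runs from 0.827-fold to 1.34-fold.

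In PBS livers the main site stood 1.24 ± 0.48 higher in hypoxia than in normoxia on the log2 scale, which did not pass (limma, adjusted p = 0.0817), and 0 of 62 sites passed, with 14 at an unadjusted p under 0.05. The count passing after adjustment moved from 0 to 26 of 64 without 6 h hypoxia PBS replicate 1. It was 8 of 64 without normoxia PBS replicate 2 and 4 without normoxia PBS replicate 3. Without 24 h hypoxia PBS replicate 3 it was 1 of 100. It was 5 with replicate numbers as a block or with the share of tags in peaks as a covariate, and 6 higher and 3 lower with libraries centred. The exact permutation test of 6 against 3 libraries gave p = 0.262. The difference was 0.20 without normoxia PBS replicate 1 and 6 h hypoxia PBS replicate 2, and it passed without 6 h hypoxia PBS replicate 1 (1.78, adjusted p = 0.000345) or without normoxia PBS replicate 2 (1.62, adjusted p = 0.0345). Fisher's exact test of detection in hypoxia against normoxia called 0 of 2938 sites within DEX and 0 of 632 within PBS, with 260 and 3 at an unadjusted p under 0.05. Before adjustment, Fisher's exact test of 6 against 3 libraries could not go below p = 0.0119 (exact test). The counts of 0 thus do not show equal detection in hypoxia and normoxia.

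The second Plin4 site was weaker and was called with DEX alone. It was called at 108.5 tags in normoxia DEX replicate 1, at 106.9 in normoxia DEX replicate 2 and at 111.0 in 6 h hypoxia DEX replicate 1. It was absent from the lists of the other 6 DEX libraries, among them all 3 after 24 h of hypoxia, and of all 9 PBS libraries. The difference between 3 DEX and 0 PBS libraries did not pass (exact Cochran-Mantel-Haenszel test, adjusted p = 0.230), nor did hypoxia against normoxia within DEX (Fisher's exact test, adjusted p = 0.786). With 3 libraries called, the Cochran-Mantel-Haenszel test could not reach the threshold even before adjustment. Fisher's exact test could not go below p = 0.0119 before adjustment. Neither result thus shows equal occupancy. Of the 7398 sites, 334 were called in 3 DEX and 0 PBS libraries, and 18 others in the same 3 libraries as this one. At these 3 libraries the second site ranked 688 to 893 in its list. The caller's minimum of 50 tags stood for 37.9 to 86.6 normalized tags in the DEX libraries, and it also required a fold over the input and over the local surroundings, so a missing peak gives no level.

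**Figure D4:**
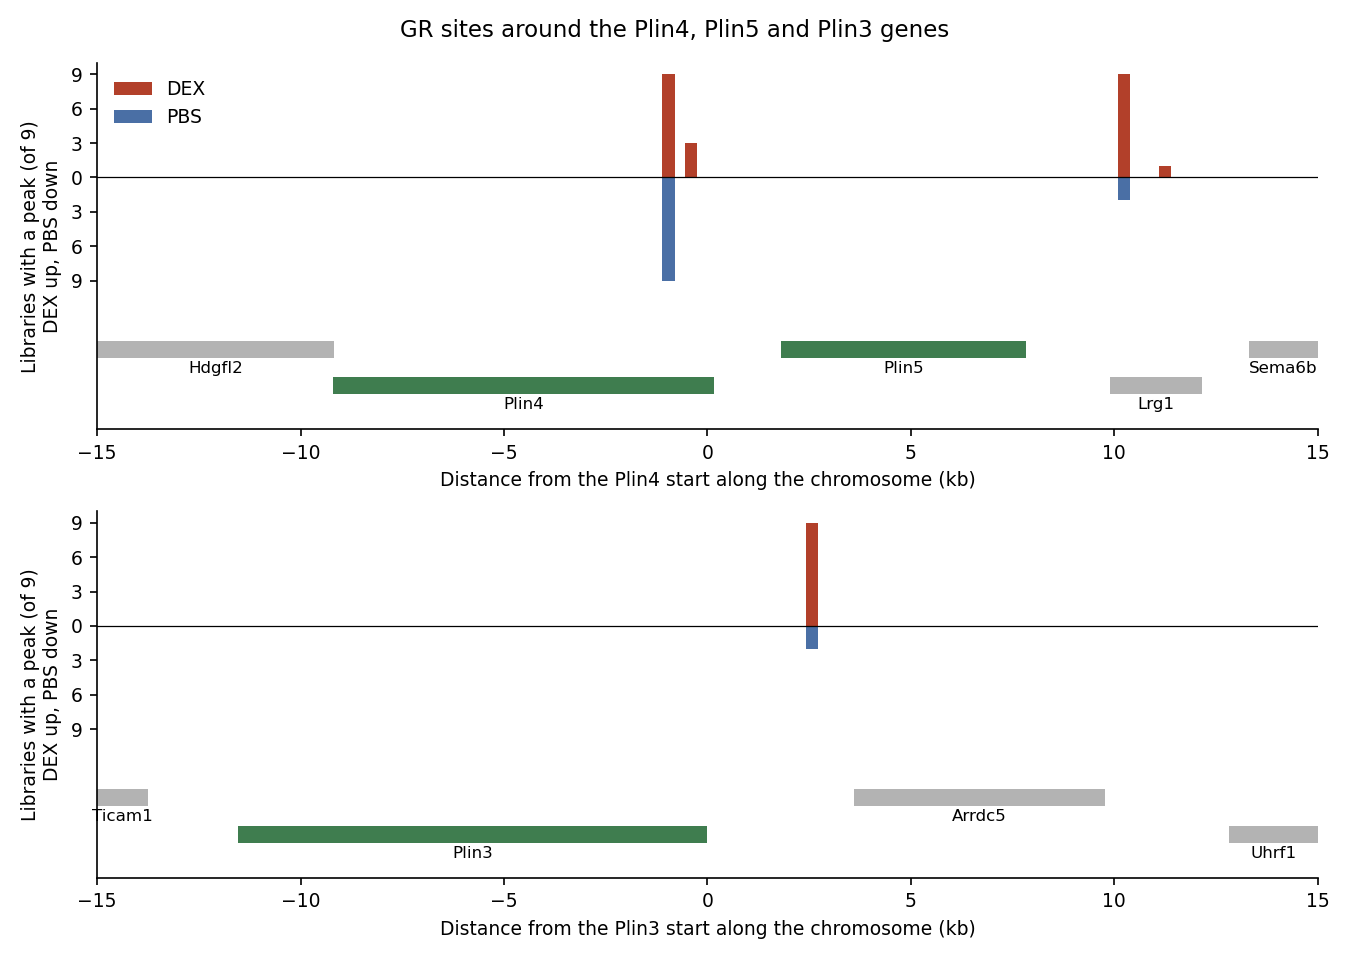
Number of the 9 DEX libraries (up, red) and of the 9 PBS libraries (down, blue) with a peak at each GR site within 15 kb of the Plin4 start (top) and of the Plin3 start (bottom), with gene spans below in green for perilipin genes and grey for others. Both genes are read from right to left; the main Plin4 site has 9 and 9 libraries, the sites in Lrg1 and upstream of Plin3 have 9 and 2 each, and the span of Plin5 has none.

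Plin5 lies next to Plin4, with 1648 bp between the spans, and no GR site fell in it. Its nearest sites were the second Plin4 site at 2211 bp, the site in Lrg1 at 2417 bp and the main Plin4 site at 2773 bp from its span. Lrg1, which encodes a secreted leucine-rich glycoprotein of the acute phase, had a site (chromosome 17, 56119905 to 56120141) in 9 DEX and 2 PBS libraries (exact Cochran-Mantel-Haenszel test, adjusted p = 0.00859). It held 206 ± 36.0 tags with DEX (SD, n = 9), and 109.3 and 41.6 tags with PBS in 6 h hypoxia replicates 2 and 3. Its change with hypoxia in DEX livers was 0.08 ± 0.13 on the log2 scale (limma, adjusted p = 0.770). The other genes within 50 kb of a Plin4 site were Sema6b, a semaphorin gene, with 1 site in 4 DEX and 0 PBS libraries, and Hdgfl2, a chromatin reader gene, Ubxn6, which encodes a cofactor of the p97 segregase, and Chaf1a, a chromatin assembly factor gene, with 0 sites each.

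Plin3 lies on the same chromosome, 161355 bp beyond Plin5 (56278962 to 56290511, minus strand). The nearest site was centred 2571 bp upstream of its start (56292972 to 56293193), but only 1029 bp from the span of Arrdc5, a gene of the arrestin domain family, so the rule gave it to Arrdc5. Assigning sites by gene start instead made it the third perilipin site. With DEX it held 161.6, 184.2 and 191.2 tags in normoxia, 280.6, 391.5 and 194.1 after 6 h of hypoxia and 217.1, 315.3 and 338.5 after 24 h, in replicates 1, 2 and 3. With PBS it was called in 6 h hypoxia replicates 2 and 3 alone, at 189.3 and 78.8 tags. All 6 hypoxia DEX libraries lay above all 3 normoxia DEX libraries, and the site was called more often with DEX (9 against 2 libraries, exact Cochran-Mantel-Haenszel test, adjusted p = 0.00859).

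In DEX livers the site upstream of Plin3 was higher in hypoxia than in normoxia by 0.81 ± 0.13 on the centred log2 scale, a 1.75-fold difference (limma, adjusted p = 0.0033). The change passed after 6 h (0.65 ± 0.15, adjusted p = 0.0338) and after 24 h (0.96 ± 0.15, adjusted p = 0.00176), and 24 h did not differ from 6 h beyond the spread (0.31 ± 0.15, adjusted p = 0.308). The exact permutation test of 6 against 3 libraries gave p = 0.0119, the smallest it can give. Of the 935 sites, 3.1% passed as higher in hypoxia. Without centring the difference was 0.66 and did not pass (limma, adjusted p = 0.558), while the exact permutation test gave p = 0.0357. Which gene this site acts on was not tested.

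**Figure D5:**
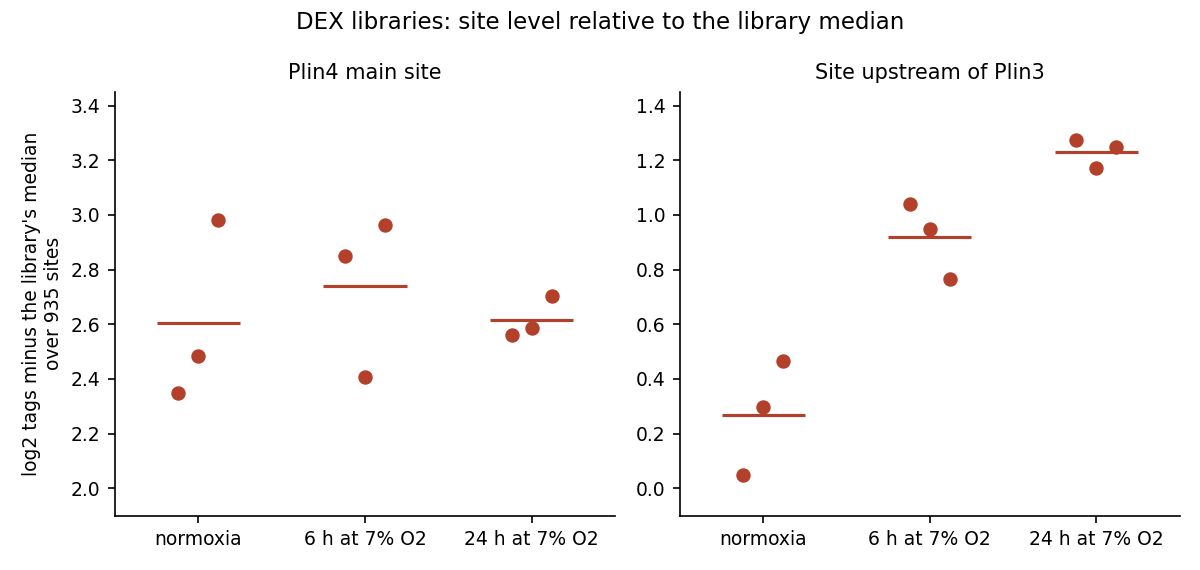
The log2 level of the main Plin4 site (left) and of the site upstream of Plin3 (right) minus the library's median over 935 sites, in the 9 DEX libraries by oxygen condition, with lines at the means. The Plin4 groups overlap, and at the site upstream of Plin3 all hypoxia libraries lie above all normoxia libraries.

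Plin1 (chromosome 7, 79721164 to 79732904) had its nearest site 25455 bp from its span. That site lies in Wdr93, a WD repeat gene, and was called in 9 DEX and 0 PBS libraries at 159 ± 37.7 tags (SD, n = 9; exact Cochran-Mantel-Haenszel test, adjusted p = 0.00307). Its change with hypoxia in DEX livers was 0.12 ± 0.13 (limma, adjusted p = 0.667). A pair of further Wdr93 sites lay 48051 and 49491 bp from Plin1, in 1 DEX and 1 PBS library and in 6 DEX and 0 PBS libraries. Wdr93 itself holds these sites, so none was given to Plin1.

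Plin2 (chromosome 4, 86626910 to 86670217), the main liver perilipin, was the member farthest from a GR site. Its nearest site lay 78461 bp from the span, in Dennd4c, which encodes an activator of Rab proteins, and was called in normoxia PBS replicate 1 alone at 12.4 tags. The nearest site called more often with DEX was in Acer2, an alkaline ceramidase gene, 227368 bp away, in 9 DEX libraries at 155 ± 28.2 tags and in 1 PBS library at 117.2 tags (adjusted p = 0.00438).

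The sites whose tags followed the main Plin4 site most closely over the 18 libraries, by Pearson correlation of log2 tags, lay near Zfp36, Foxo1, Hectd4, Ccnd3 and Ptpn1, though 251118 bp from Foxo1 and 70003 bp from Ptpn1. The correlations are given within each treatment, over 9 libraries each. They were 0.95 with DEX and 0.98 with PBS for Zfp36, 0.82 and 0.97 for Foxo1, 0.70 and 0.97 for Hectd4, 0.89 and 0.96 for Ccnd3, and 0.90 and 0.98 for Ptpn1. The points share the library, its depth and its share of tags in peaks. After centring, over the 9 DEX libraries, the closest sites lay near Ap1m1 (0.97), Hmga1 (0.96), Pla2g12a (0.95), Ptpn1 (0.93) and Hif3a (0.92). In both comparisons the sites were picked as the highest of many correlations over few libraries, which by itself gives high values. Whether any of them is linked to Plin4 was not tested.

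Other genes of lipid droplet metabolism were taken from 5 lists of 48 genes. Of these 48 genes 26 had a GR site, where 22.1% of all protein-coding genes had one. Among the 26, Abhd5, Hsd17b11, Rab18, Ldah and Fabp1 had 1 site each, at 12.4 to 17.2 tags. These were called in normoxia PBS replicate 1 alone, the deepest library. Slc27a2 and Apob had 1 site each, called in 1 DEX library alone. A site called more often with DEX was held by 11 of the 48 (22.9%), against 4.52% of all protein-coding genes. The 5 perilipins had 0 such sites, but neither Plin4 site could pass this test. The main one was called in all 18 libraries and the second in only 3. In the lists, 2 of 9 lipolysis genes, 4 of 13 triglyceride synthesis genes, 1 of 12 genes of droplet formation and other droplet proteins, 0 of 9 genes of fatty acid uptake and lipoprotein export, and 4 of 5 fatty acid-sensing receptors and partners had a site called more often with DEX. The 11 became 5 at the common threshold. They became 2 when all peak lists were shortened to equal length, the 78 peaks of the shortest list. The DEX lists held 1235 to 3659 peaks before this cut. The sites of the genes named next all averaged fewer tags with DEX than the main Plin4 site.

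Among the triglyceride synthesis genes, Gpat4, an acyltransferase of the first step, held 555 ± 115 tags at its best site in 9 DEX libraries and 145 ± 157 in 3 PBS libraries (adjusted p = 0.0216). Lpin1, a phosphatidate phosphatase, held 540.4 ± 150.2 tags at its best site in 9 DEX and 159 ± 121 in 8 PBS libraries, a detection difference that did not pass (adjusted p = 1), while 2 of its 6 sites were called more often with DEX. Gpam, the mitochondrial enzyme of the first step, had a site 12223 bp away in 9 DEX and 0 PBS libraries at 79.9 ± 23.5 tags (adjusted p = 0.00307). Among the lipolysis genes, Mgll, the monoacylglycerol lipase, held 494 ± 95.4 tags in 9 DEX and 218 ± 144 in 2 PBS libraries (adjusted p = 0.00859). Pnpla2, the lipase of the first step of triglyceride breakdown, had a site with 94.1 ± 21.6 tags in 9 DEX libraries, and 107.0 in 1 PBS library (adjusted p = 0.00438). Cidec, a droplet fusion protein, had a site with 93.8 ± 21.0 tags in 9 DEX libraries, also called in 1 PBS library (adjusted p = 0.00438). The PBS value, 17.2 tags, came from the deepest library, normoxia PBS replicate 1, where the caller's minimum stood for 11.5 normalized tags. The receptor genes Ppara (267 ± 61.7 tags in 9 DEX libraries, 138.6 in 1 PBS library, adjusted p = 0.00438) and Ppard (256 ± 162 in 9 DEX and 0 PBS libraries, adjusted p = 0.00307) were of the same kind. Errors are SD over the libraries with a peak, and these p-values are from the exact Cochran-Mantel-Haenszel test.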

How the data were processed

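GR ChIP-seq of 18 mouse liver libraries in 6 groups of 3 was analysed, with groups taken from the sample titles. The submitters' processing notes name Trimmomatic, BWA 0.7.17, SAMtools 1.10, HOMER (version not given in the sources used here) and mm10. Per the file headers, the authors called peaks in each library alone against the input for its oxygen condition, with 4-fold more tags than input and local surroundings, a Poisson p of 1e-04 and at least 50 tags, a minimum not scaled to depth. The deposited signal is the normalized tag count per 10000000 tags. The input tags are also a deposited signal. The deposited score, the fold over input (a ratio) and the focus ratio (a fraction, the share of tags on the side of the centre their strand predicts) are the authors' values per peak and served to filter or describe peaks.

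Peaks overlapping by 1 bp were merged, and genes came from a RefSeq table of GRCm38.p6. Where a library had several peaks in a site, the highest was used. Detection was tested at sites in at least 3 libraries (DEX) or 2 of 9 (hypoxia). log2 tags were fitted with limma 3.58.1 in R 4.3.3 on sites called in all 18 libraries (DEX) or all 9 DEX libraries (hypoxia, each library centred on its median), with no imputed values. All p-values are two-sided; they were adjusted by Benjamini-Hochberg over all sites tested, with a threshold of 0.05. Both methods were tested on simulated data. The limma simulation used independent noise with no shift shared within a library, so it does not cover the shared shifts seen here. Whether replicate numbers pair the libraries was not settled, and the main tests took the libraries as unpaired. Sites called in every library were tested, so weak sites enter no tag test. Tag levels are limited by depth, 5772670 to 43645787 tags per library.

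The genes named are all 5 members, every gene within 50 kb of a perilipin site, the nearest sites of members without one, the 5 most alike sites in each comparison, and up to 12 genes of the lipid lists with a site in all 9 DEX libraries. Armc12 and Foxp1 were named after their values were seen. The members and lists were chosen with earlier results of these data known. No genome sequence was used here, so site sequences are not printed. Alternatives were other thresholds, overlaps, normalizations, replicate blocks and left-out libraries.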

Additional observations from a re-analysis of the deposited data

How the results depend on the processing

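The number of perilipin sites was 2 with limits of 10 or 100 kb, an overlap of 50 bp or a common threshold, and 3 by gene start. The 1418 sites called more often with DEX became 921 with replicate numbers as a block, 757 at the common threshold and 28 of 135 tested at equal list lengths, and ran from 1309 to 1607 with 1 library left out. The 11 lipid list genes became 5 at the common threshold and 2 at equal list lengths, and 11 to 14 with 1 library left out. The 59 sites called for DEX, all higher, became 36 after centring, 16 higher and 20 lower, and otherwise 159 of 164 when a site needed 15 libraries, 60 with the replicate block, 58 to 95 with 1 library left out (95 of 100 tested without 24 h hypoxia PBS replicate 3) and 0 with the share of tags in peaks as a covariate. Under that covariate, chosen after seeing the data, the Plin4 change was 0.92 over all conditions, 1.40 in normoxia, 0.23 at 6 h and 1.14 at 24 h. The 6 h change was 0.45 after centring, which takes out any change shared by most of the sites. Leaving out 1 library at a time gave a Plin4 change of 2.12 to 2.74 over all conditions, 2.71 to 3.73 in normoxia, 0.52 to 2.39 after 6 h and 2.02 to 2.86 after 24 h. The difference of the DEX change between hypoxia and normoxia ran from -1.85 to -0.68, with 0 to 3 sites called, and hypoxia within PBS from 0.60 to 1.78. The 48 sites called for hypoxia within DEX became 11 without centring, 74 with the replicate block, 15 with the share of tags in peaks as a covariate and 23 to 64 with 1 library left out. The small Plin4 difference with hypoxia turned sign, to -0.077 without centring, -0.088 with that covariate and -0.058 to 0.26 with 1 library left out, and passed under none. The 24 h difference turned to -0.28, -0.20 and, with sites in at least 7 libraries, -0.026, and ran from -0.12 to 0.20 with 1 library left out. The causes were not tested. Same-numbered libraries had correlated deviations of -0.59 to 0.52, above 0.1 in 28 of 45 pairs. Whether the numbers mark a shared batch was not tested, so the block is given as an alternative. Peak lists give no level below the caller's threshold, and the shallowest library, at 5772670 tags, sets the common one.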
